A study of Homo sapiens with 6 samples.

Results

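Small nucleolar RNA host genes are transcribed into RNAs whose introns carry the guides that modify ribosomal RNA. Described here are 10 of them, SNHG15, SNHG1, SNHG5, SNHG6, SNHG7, SNHG8, SNHG12, SNHG16, GAS5 and ZFAS1, out of 26484 gene symbols counted. They were taken by symbol from a list drawn up with their difference between the gels, and within each replicate number, already known. Those differences are therefore given as a description, and counts of these genes past a threshold are printed beside the share of all genes and support nothing. The RNA came from MCF10CA1a, a malignant human line of the MCF10A breast epithelial lineage, in 1 line throughout. One group of 3 biological replicates grew on dishes of 500 Pa (soft) and the other group of 3 on dishes of 8000 Pa (stiff). Both groups shared the growth factor-reduced Matrigel coat at 0.14 mg/ml, the growth medium with horse serum, the change of medium on day 4 and RNA isolation on day 5. Cytosolic is the kind of RNA named in the labels.

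A snoRNA host gene is spliced, its introns are trimmed to snoRNAs, and the snoRNAs join proteins that guide methylation (C/D box) or pseudouridylation (H/ACA box) of ribosomal RNA. The spliced exons of the noncoding hosts code for no conserved protein, and several of these RNAs, GAS5 among them, are degraded by nonsense-mediated decay while they are being translated. Many hosts share with ribosomal protein genes a start of transcription at a C followed by C and T bases, the 5′ terminal oligopyrimidine (TOP) start, which ties translation to growth signalling through mTOR.

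The start regions are shown for that reason. RefSeq promoters (GRCh38.p14) matched 8 of the 10 symbols, and SNHG15 and SNHG6 did not match. Each line below runs from 40 bases before to 30 bases from the annotated start, 5′ to 3′ on the gene's strand, and the capitals mark the unbroken run of C and T that begins at the start base.
SNHG1 (chr11:62855856-62855925, minus strand): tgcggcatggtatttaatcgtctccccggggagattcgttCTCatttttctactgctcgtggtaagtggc
SNHG5 (chr6:85678704-85678773, minus strand): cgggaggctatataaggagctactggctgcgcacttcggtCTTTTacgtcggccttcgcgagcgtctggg
SNHG7 (chr9:136728155-136728224, minus strand): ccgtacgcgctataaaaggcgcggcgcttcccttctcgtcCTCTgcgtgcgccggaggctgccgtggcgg
SNHG8 (chr4:118278722-118278791, plus strand): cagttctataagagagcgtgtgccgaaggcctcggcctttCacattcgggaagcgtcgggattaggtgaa
SNHG12 (chr1:28581844-28581913, minus strand): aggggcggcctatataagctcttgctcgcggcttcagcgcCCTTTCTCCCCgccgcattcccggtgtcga
SNHG16 (chr17:76557724-76557793, plus strand): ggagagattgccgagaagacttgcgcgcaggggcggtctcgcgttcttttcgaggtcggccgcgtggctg
GAS5 (chr1:173869016-173869085, minus strand): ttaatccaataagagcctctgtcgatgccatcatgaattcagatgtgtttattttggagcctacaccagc
ZFAS1 (chr20:49278602-49278671, plus strand): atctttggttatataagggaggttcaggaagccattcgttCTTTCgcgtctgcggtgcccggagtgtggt

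A C stood at the start base in 6 of the 8 (75%), against 14.7% of all 35116 RefSeq promoters. A C followed by at least 4 further C or T bases began SNHG5, SNHG12 and ZFAS1 (37.5%), against 4.07% of all promoters. The same form began 10 of 18 ribosomal protein snoRNA hosts (55.6%) and 4 of 20 other noncoding hosts (20%). Within 5 bases before to 15 after the start, that form was found in 6 of the 8 (75%), in 14 of 18 ribosomal protein hosts (77.8%), in 9 of 20 other noncoding hosts (45%) and in 27.1% of all promoters. SNHG16, whose RefSeq start base was not a C, was among the 6. For GAS5 the RefSeq start lies upstream of the whole GENCODE gene, so its line does not show where the GENCODE transcripts of GAS5 begin. After the lines above had been seen, the letters TATAA on the gene's strand were searched 40 to 21 bases before the start. They stood there in SNHG5, SNHG7, SNHG8, SNHG12 and ZFAS1, 5 of 8, against 3.77% of all promoters, 1 of 20 other noncoding hosts and 1 of 18 ribosomal protein hosts. The E-box CACGTG, searched on both strands of the whole 300 bases, was in SNHG7 alone of the 8, against 7.26% of all promoters. These are matches of letters and not tested sites.

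RefSeq places 37 snoRNAs within the 10 genes. GAS5 spans 11 and SNHG1 9, SNHG12 holds 4, SNHG16 and ZFAS1 3 each, SNHG5 and SNHG7 2 each, and SNHG15 (SNORA9), SNHG6 (SNORD87) and SNHG8 (SNORA24) 1 each. In GENCODE 29 on GRCh38, SNHG15 lies on chromosome 7 from 44983023 to 44986961 and SNHG7 on chromosome 9 from 136721366 to 136728184, both on the minus strand. GAS5 lies on chromosome 1 from 173863900 to 173868882 and ZFAS1 on chromosome 20 from 49278178 to 49295738. ZFAS1 runs opposite to the helicase-like gene ZNFX1, whose exons share 249 bases with it (11.1% of its exonic bases), and ZNFX1 was at 253 CPM on soft and 212 CPM on stiff gels. SNHG7 shares 1094 exonic bases with FAM69B on the other strand, but FAM69B was at 0.395 and 0.141 CPM. SNHG16 shares 1639 exonic bases (30.6%) with AC015802.6, which was not analysed here, and SNHG6 shares 365 (29.3%) with MCMDC2, at 0.0373 and 0.157 CPM. It is not known here whether counting used strand, so reads in such shared stretches cannot be told apart.

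Library totals ran from 8305601 to 18779742 counts, and the 10 genes together took 3880 to 12844 counts per library, or 0.0467% to 0.0830% of the total. Levels are CPM, each gene's share of the library's counts on a common scale, scaled by TMM, which corrects for library composition. A log2 fold change below 0 means a lower level on the stiff gel, and its standard error (SE) comes from edgeR. Epithelial keratins marked all 6 libraries, with KRT8 between 5952 and 14854 CPM. PTPRC, CD3E, COL1A2 and TEK were at 0 counts throughout. CD14, CD68, COL1A1 and the other leukocyte and fibroblast markers listed had counts. The 5 leukocyte markers summed to between 19.9 and 47.2 CPM per library, and the 5 fibroblast markers to between 1.23 and 4.65 CPM. Of 5 endothelial markers, TEK was at 0 and VWF and KDR at no more than 0.43 CPM, but PECAM1 (89.2 to 241 CPM) and CDH5 (1.118 to 16.1 CPM) were higher on stiff gels in the fit with the replicate number as a block (adjusted p by edgeR 0.00537 and 3.14e-04), which called 0.26% of tested genes higher. Neither PECAM1 nor CDH5 was called with the block when replicate 3 was left out. Their part in the values below was not tested. The 500 Pa replicate 3 and 8000 Pa replicate 1 libraries held the lowest level of 4 of the 10 genes each, and the values below are given without them where that moves them most.

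SNHG15 separated the gels most. This short noncoding RNA hosts SNORA9, a guide of the H/ACA kind. It stood at 63.9, 42.9 and 67.5 CPM in soft replicates 1, 2 and 3, and at 23.5, 25.6 and 37.3 CPM in the stiff ones. Every stiff library was below every soft one, and the stiff mean was 49.5% of the soft mean (58.1 ± 13.3 against 28.8 ± 7.44 CPM, SD, n = 3 each). The log2 fold change was -1.01 (SE 0.31), and the log2 ratios within replicate numbers 1, 2 and 3 were -1.44, -0.74 and -0.85. The counts behind it ran from 242 to 1144 per library. Without the 500 Pa replicate 3 and 8000 Pa replicate 1 libraries the log2 fold change was -0.77.

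SNHG7, which hosts SNORA17A and SNORA17B, moved the same way at a much lower level. It had 3.97, 6.15 and 4.29 CPM on soft gels and 1.52, 3.70 and 2.99 CPM on stiff gels. The groups did not overlap, but the values rest on only 19 to 71 counts per library, and the highest stiff library was close to the lowest soft one. Its log2 fold change was -0.82 (SE 0.47), and -0.52 without 8000 Pa replicate 1, where it had the 19 counts.

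Both SNHG15 and SNHG7 were lower on stiff gels in all 3 replicate numbers, as were 15.2% of all tested genes. Of the 10 genes, these 2 had groups that did not overlap with the stiff side lower, as did 2.85% of the 11517 genes tested. None had groups apart with the stiff side higher, against 4.02%. SNHG15 was the 1 gene of the 10 with a log2 fold change of -1 or lower, a fold that 0.868% of tested genes passed. The edgeR fit of stiffness alone called 0 of the 10 at an FDR of 0.05 and 0 genes in all, 0% of those tested. There 282 genes had an unadjusted p under 0.05, DESeq2 called 7 genes and limma-voom 0. With the replicate number as a block, 1 of the 10, SNHG15, was past that threshold, as were 0.269% of tested genes on the lower side, and it was not past it without replicate 1 or without replicate 3. The genes were chosen on this contrast and these replicate numbers, so nothing is read from these counts.

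**Figure D1:**
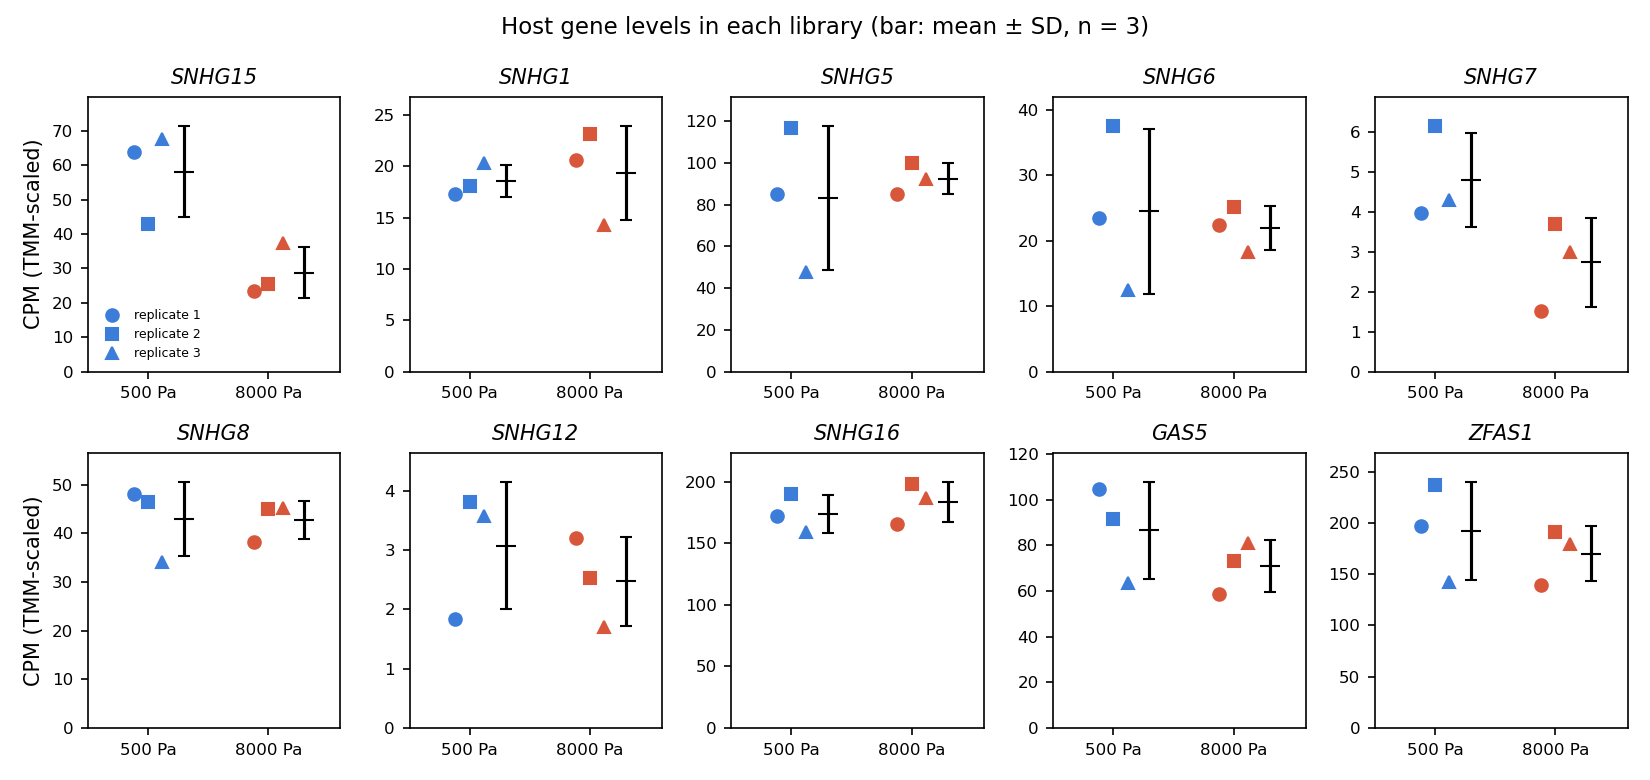
Level of each of the 10 host genes in CPM (vertical axis, from 0 and different in each panel) on 500 Pa and 8000 Pa gels. Symbols are libraries by replicate number and black bars are mean ± SD of 3; in the SNHG15 and SNHG7 panels all stiff libraries lie below all soft ones, and in the other 8 panels the groups overlap.

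For the other 8 genes the gels overlapped, and the fold change was smaller than 1 SD between libraries of the same gel on the log2 scale. Over all tested genes the fold change exceeded that SD in 24.9%, and among the 10 it did so in 2.

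GAS5, the growth arrest-specific transcript with the most snoRNAs of the 10, had 105, 91.7 and 63.5 CPM on soft gels and 58.8, 73.1 and 81.0 CPM on stiff gels. Soft replicates 1 and 2 were above all stiff libraries, and soft replicate 3 fell among them. The log2 fold change was -0.29 (SE 0.28), with log2 ratios of -0.83, -0.33 and 0.35 by replicate number. Leaving out 1 library moved it to between -0.42 (soft replicate 3 left out) and -0.11 (soft replicate 1 left out), and to -0.17 with stiff replicate 1 left out.

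ZFAS1, a host of 3 C/D box snoRNAs known from mammary gland development, was the most abundant of the 10 per length. It stood at 197, 237 and 142 CPM on soft gels and 140, 191 and 180 CPM on stiff gels. The lowest values were in soft replicate 3 and stiff replicate 1, and the log2 fold change was -0.18 (SE 0.27). By replicate number the log2 ratios were -0.49, -0.31 and 0.34, the same order of signs as in GAS5. The fold change became -0.30 with soft replicate 3 left out, -0.05 with stiff replicate 1 left out and 0.00 with soft replicate 2 left out.

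SNHG16, which hosts the SNORD1 guides, was the steadiest. It had 172, 190 and 159 CPM on soft gels and 166, 198 and 186 CPM on stiff gels. All 6 libraries lay between 159 and 198 CPM, and the log2 fold change was 0.08 (SE 0.23). SNHG8, the host of SNORA24, had 48.2, 46.4 and 34.2 CPM against 38.3, 45.01 and 45.2 CPM. The fold change was near nil, -0.01 on the log2 scale (SE 0.28). Its soft replicate 3 was the lowest of the 6 libraries.

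SNHG5, which carries the SNORD50 guides, had 84.9, 117 and 47.7 CPM on soft gels and 85.1, 99.8 and 92.5 CPM on stiff gels. The soft libraries thus spread 2.45-fold and enclosed the stiff ones, which spread 1.17-fold. The log2 fold change of 0.15 (SE 0.32) became -0.07 without 500 Pa replicate 3. SNHG6, the host of SNORD87, also ranged widely, with 23.5, 37.6 and 12.4 CPM on soft and 22.4, 25.1 and 18.3 CPM on stiff gels. Its soft libraries spread 3.02-fold, and its log2 fold change of -0.16 (SE 0.38) became -0.42 when soft replicate 3 was left out and 0.28 when soft replicate 2 was.

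SNHG1, also known as the U22 host gene, had 17.3, 18.1 and 20.3 CPM on soft gels and 20.6, 23.1 and 14.3 CPM on stiff gels. Here stiff replicates 1 and 2 were above all soft libraries and stiff replicate 3 was below them, and the log2 fold change was 0.06 (SE 0.32). SNHG12 was the sparsest, at 1.84, 3.80 and 3.57 CPM against 3.20, 2.54 and 1.69 CPM, on 17 to 40 counts per library. Its groups overlapped widely, the fitted log2 difference being -0.28 (SE 0.49) and the log2 ratios 0.74, -0.55 and -1.0 by replicate number. It ran from -0.55 with soft replicate 1 left out to -0.04 with stiff replicate 3 left out.

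**Figure D2:**
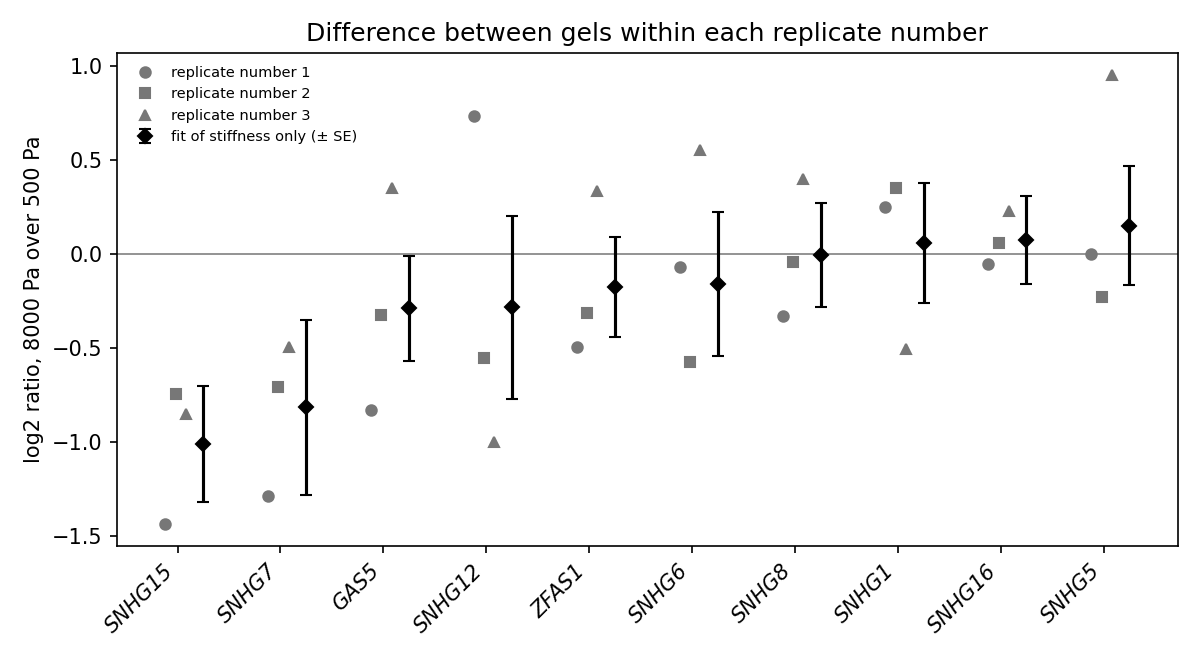
Log2 ratio of 8000 Pa over 500 Pa for each of the 10 host genes within replicate numbers 1, 2 and 3 (grey symbols), and the log2 fold change of the fit of stiffness alone with its SE (black). SNHG15 and SNHG7 lie below 0 in all 3 replicate numbers, and the other 8 genes have ratios on both sides of 0.

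Over the 10 genes, 7 had a log2 fold change below 0, and the median was -0.17. Of all tested genes 48.8% were below 0, and their median was 0.01. The medians of the 10 within replicate numbers 1, 2 and 3 were -0.20, -0.32 and 0.28, so replicate 3 ran opposite to the others. With the replicate number as a block 6 were below 0 and the median was -0.10. Leaving out soft replicate 3 gave -0.20, leaving out stiff replicate 1 gave -0.11, and leaving out both gave -0.29. It was 0.02, with 4 of 10 below 0, when soft replicate 2 was left out, and -0.03 when stiff replicate 3 was. Each median with the block or with libraries left out differed from that of the full fit by less than 0.21. That value is the SD of the per-library median between libraries of the same gel. The median within replicate number 3, 0.28, lay further than that from the full fit. Fits that share most of their libraries differ little by construction, so the differences under 0.21 are no sign of a stable median.

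Seen by library, 500 Pa replicate 3 held the lowest level of SNHG5, SNHG6, SNHG8 and SNHG16. The lowest level of SNHG15, SNHG7, GAS5 and ZFAS1 was in 8000 Pa replicate 1, and 8000 Pa replicate 3 was lowest for SNHG1 and SNHG12. In 500 Pa replicate 2, 5 of the 10 were at their highest. The sum of the 10 was 718, 791 and 554 CPM on soft gels and 559, 687 and 659 CPM on stiff gels. These sums overlapped, with soft replicate 3 and stiff replicate 1 nearly equal. The 21 ribosomal protein snoRNA hosts, by contrast, summed to 21214 to 21685 CPM in the soft libraries and to 12754, 18524 and 19866 CPM in the stiff ones. For these the soft replicate 3 library did not stand low.

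**Figure D3:**
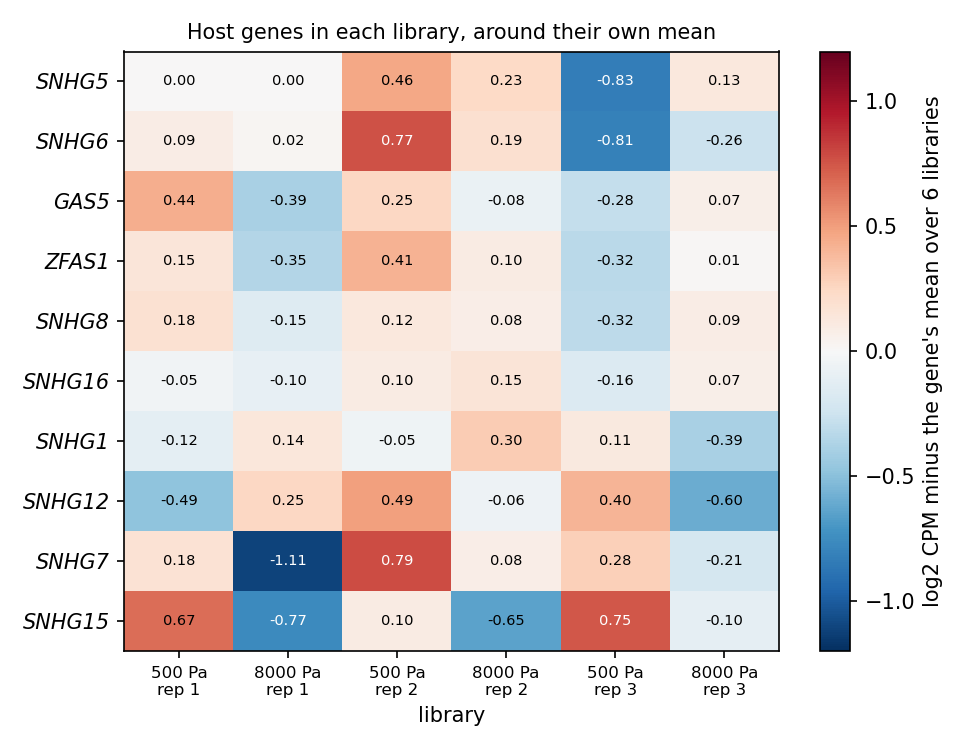
Log2 CPM of the 10 host genes (rows) in the 6 libraries (columns, ordered by replicate number), each as the difference from the gene's mean over all libraries; red is above and blue below that mean. The lowest cells of SNHG5 and SNHG6 are in 500 Pa replicate 3 (-0.83 and -0.81), and those of SNHG15 and SNHG7 are in 8000 Pa replicate 1 (-0.77 and -1.11).

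Levels between genes were compared per kilobase, using the median length of the GENCODE basic transcripts. On soft gels ZFAS1 led with 262 CPM per kb, followed by GAS5 with 145, SNHG5 with 110, SNHG8 with 91.3 and SNHG16 with 89.3. SNHG15 had 61.0, SNHG6 38.4, SNHG1 24.2, SNHG12 4.07 and SNHG7 2.23 CPM per kb. Of the neighbours in this order, GAS5 and SNHG5, SNHG5 and SNHG8, SNHG8 and SNHG16, SNHG15 and SNHG6, SNHG6 and SNHG1, and SNHG12 and SNHG7 had overlapping soft libraries. On stiff gels the level of SNHG15 was 30.2 CPM per kb, below the 34.4 of SNHG6, but their libraries overlapped there too. The lengths assume the annotated transcripts, and the isoforms used in these cells were not resolved.

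Transcript GC content differed among the 10, from 42.0% in SNHG6 to 54.4% in SNHG15 and 58.0% in SNHG7. Within replicate number 1, fold change fell with GC content across 11003 genes (Spearman rho -0.62), against 0.06 and 0.01 in replicate numbers 2 and 3. Across the 10 host genes, which share libraries, rho was -0.53, -0.53 and -0.65 within replicate numbers 1, 2 and 3. For the fitted fold change, the rho of the 10 with GC was -0.77, against -0.32 over all 23 tested noncoding hosts and -0.39 over all genes. With an offset for GC content in the fit these were -0.73, -0.14 and -0.01. With that offset SNHG15 had a log2 fold change of -0.96, SNHG7 -0.70, GAS5 -0.38 and ZFAS1 -0.22. SNHG15 was at -1.01 without the offset, and the part of GC content in its difference was not tested. SNHG1 and SNHG16 changed sign with the offset, to -0.10 and -0.03, so 9 of the 10 were then below 0.

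**Figure D4:**
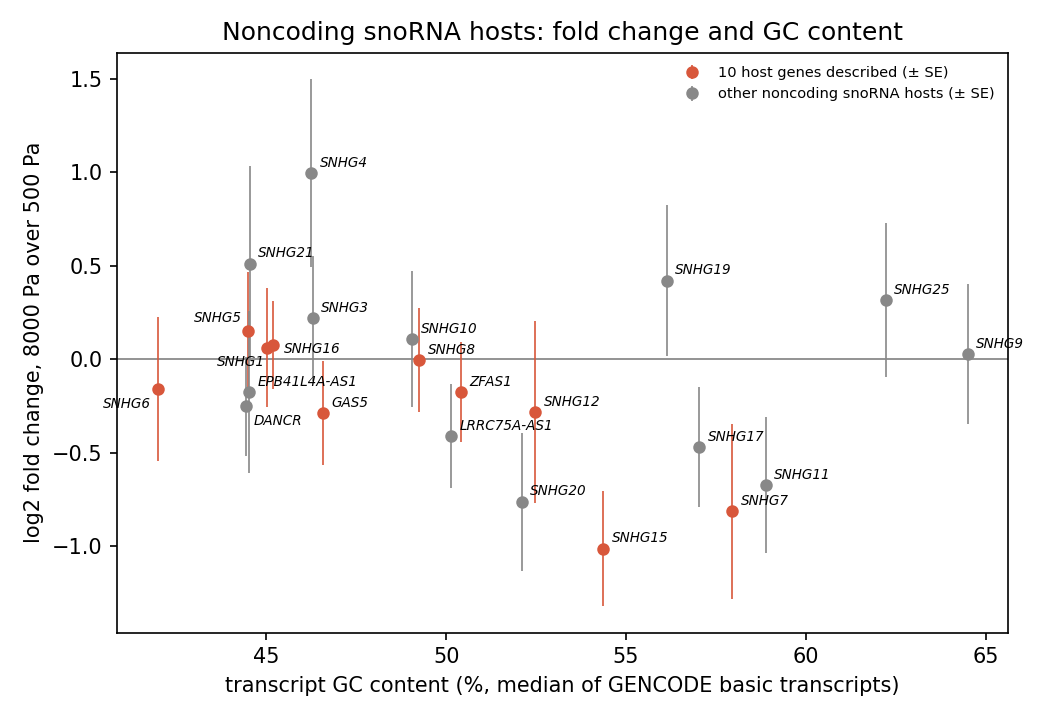
Log2 fold change of 8000 Pa over 500 Pa (vertical axis, ± SE) against transcript GC content in percent (horizontal axis) for the 10 host genes (red) and 13 other noncoding snoRNA hosts (grey). SNHG15, at 54.4% GC, is the lowest point at -1.01, and hosts of higher GC content lie on both sides of 0.

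Of 25 other noncoding snoRNA hosts listed for comparison, 18 were in the tables and 13 were tested. None was called in either edgeR fit (0 of 13), where 0% of all genes were called with stiffness alone and 0.53% with the block. Their median log2 fold change was 0.03, with 6 below 0 and 7 above. SNHG20 had 11.5, 7.27 and 10.1 CPM on soft and 5.83, 4.65 and 6.58 CPM on stiff gels, with no overlap (log2 fold change -0.76, SE 0.37). SNHG11 had 37.9, 22.6 and 39.7 against 13.2, 20.1 and 29.6 CPM, and overlapped. SNHG4 had 1.40, 1.01 and 1.00 CPM on soft and 2.16, 1.69 and 3.09 CPM on stiff gels, also with no overlap but at few counts. Groups apart in either direction were found in 2 of the 13, against 6.87% of all tested genes.

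The 10 genes did not share 1 pattern over the 6 libraries. Among their 45 pairs the median Pearson r was 0.26, with 28 pairs above 0 and 6 above 0.8. Those above 0.8 all lay among SNHG5, SNHG6, SNHG8, SNHG16, GAS5 and ZFAS1, whose pairs ran from 0.42 to 0.90. Every pair below 0 held SNHG1, SNHG12 or SNHG15. That grouping was seen in these same values, and the r of pairs of other genes was not computed. The gene with the pattern most like the mean of the 10 was itself a snoRNA host, LRRC75A-AS1 (now SNHG29), with a Pearson r of 0.977. It stood at 730, 915 and 484 CPM on soft and 449, 598 and 553 CPM on stiff gels. Next came EEF1B2, a translation elongation factor gene that also hosts snoRNAs, at 0.963, the cold-inducible RNA-binding protein gene CIRBP at 0.956, PDCD2 at 0.955 and MPZL1 at 0.946. NONO followed at 0.943, the ribosomal protein gene RPL14 at 0.942 and the stress factor gene ATF4 at 0.937. Genes outside the 10 with at least 20 CPM numbered 5269, and 24 of them had r above 0.9. These r values describe 6 libraries that differ in depth and GC trend. The mean is of genes chosen on this contrast. The share of snoRNA hosts among the 5269 was not computed, so nothing is read from the hosts named.

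Genes that work with these hosts were read from lists. Beside the calls in the lists below, the fit of stiffness alone called 0% of all tested genes and the block 0.53%. In the list of snoRNP proteins, which bind and stabilise the snoRNAs, 0 of 15 tested members were called in either fit, and the median log2 fold change was -0.14. RUVBL2, an assembly ATPase, had 670 ± 193 CPM on soft and 448 ± 171 CPM on stiff gels. SNU13 had 461 ± 86.5 against 336 ± 87.8 CPM. NOP56, a C/D box core protein whose gene is itself a snoRNA host, had 303 ± 30.6 against 244.5 ± 21.6 CPM (n = 3 each). NOP56 was the 1 member of the 15 whose groups did not overlap, against 6.87% of all tested genes.

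Among nonsense-mediated decay factors, 0 of 18 were called in either fit. A fold change above 0 was found in 14 of them (median 0.06), and in 5901 of all 11517 tested genes. The medians of these factors within replicate numbers 1, 2 and 3 were 0.21, 0.01 and 0.02. SMG9 had 82.1 ± 8.89 CPM on soft and 61.7 ± 11.95 CPM on stiff gels, and SMG1 had 7.13 ± 1.78 against 10.7 ± 7.14 CPM. Of 7 tested mRNAs known as targets of that decay, 1 fell with the block, against 0.269% of all tested genes, and 0 with stiffness alone, which called no gene at all. It was UPP1, a uridine phosphorylase gene, at 286, 178 and 251 CPM on soft and 91.5, 118 and 174 CPM on stiff gels (adjusted p = 0.0228 by edgeR with the block, lower in 3 of 3 replicate numbers). When replicate 3 was left out, the block did not call UPP1. ATF3 had 9.0 ± 1.43 against 4.98 ± 0.788 CPM, with no overlap, and ASNS 211 ± 73.8 against 139 ± 4.96 CPM. Both are also stress response genes, and the list's median was -0.26.

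None of the protein-coding hosts was called in either fit, 0 of 15 outside the ribosome and 0 of 21 ribosomal protein hosts, where the fit of stiffness alone called 0% and the block 0.53% of all tested genes. Outside the ribosome the median was -0.09. GNB2L1 (RACK1), kept in that list although it is a ribosome-bound scaffold, had 2832 ± 391 CPM on soft and 2119 ± 498 CPM on stiff gels. The mitochondrial chaperone gene HSPA9 had 484 ± 112 against 625 ± 218 CPM. For the ribosomal protein hosts the median was -0.36, with 19 of 21 below 0 (48.8% of all tested genes) and medians of -0.70, -0.22 and 0.07 by replicate number. Without 8000 Pa replicate 1 that median was -0.09, with 19 of 21 below 0. The number below 0 was 16 without 500 Pa replicate 2, 14 with the block without replicate 1, and 21 with the GC offset. RPL32 had 1365 ± 154 against 976 ± 220 CPM and RPL12 526 ± 19.4 against 375 ± 104 CPM. Groups apart with the stiff side lower were found in 6 of the 21, against 2.85% of all tested genes. TOP mRNAs outside the ribosome had a median of -0.13, with 0 of 18 called in either fit. FAU, kept in that list although it is a ribosomal and ubiquitin-like fusion gene, had 1301 ± 398 against 751 ± 297 CPM, with overlap. Of 13 regulators of TOP translation and growth, 0 were called in either fit, with a median of 0.02.

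Spliced noncoding RNAs that host no snoRNA gave 0 calls in either fit among 14 tested, with a median of -0.13. LINC-PINT had 2.70 ± 0.654 CPM on soft and 1.59 ± 0.400 CPM on stiff gels. The nuclear-retained MALAT1 had 20.9, 20.2 and 35.6 CPM on soft and 55.2, 14.2 and 17.3 CPM on stiff gels, with its highest value in stiff replicate 1, where SNHG15, SNHG7, GAS5 and ZFAS1 were lowest. Its part in those values was not tested.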

How the data were processed

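The 6 deposited tables hold raw counts per gene symbol, whole numbers that are not normalized, per the file headers, and the authors' TMM-scaled log2 values for 8593 of 26484 symbols. The log2 values are listed for 8 of the 10 genes and were not used. The submitters' processing notes name HISAT2 2.1.2, HTSeq 0.11.4, limma, DESeq2 and GRCh38. The sources used here do not give the annotation, strand setting or RNA selection. Columns of no sample numbered 0.

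Counts were tested with edgeR 4.0.16 (R 4.3.3): filterByExpr (minimum count 10, minimum total 15) kept 11517 genes, TMM scaling, quasi-likelihood F test, Benjamini-Hochberg over all tested genes, FDR 0.05. The main fit had stiffness only. Alternatives were the replicate number as a block, GC offsets (loess, span 0.5), other scaling and filters, DESeq2 1.42.0, limma-voom 3.58.1 and each library left out. Same-numbered libraries deviated together (correlations 0.409, 0.184 and 0.516 across genes), so the numbers were taken to pair them, although 500 Pa replicate 2 correlated at 0.199 with 8000 Pa replicate 1. No shared day is stated, and p-values measure only the spread between these libraries. Log2 CPM used a prior count of 2. GC and length came from GENCODE 29, with a GC value for 95.5% of tested genes. Steps were tested on simulated data.

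The 10 genes and all lists were chosen with earlier results of these data known. Named beyond the 10 were list members called in either fit, otherwise up to 3 of smallest p, and the 8 genes of most similar pattern. KRT8 and the other markers were read from marker lists. A gene that this rule names is not reported here.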

Additional observations from a re-analysis of the deposited data

How the results depend on the processing

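Genes called by edgeR with stiffness alone numbered 0 higher and 0 lower at 8000 Pa. The replicate block gave 30 and 31, the block with a GC offset 49 and 27, DESeq2 6 and 1, DESeq2 with the block 22 and 20, and no filter 6 and 2. With single libraries left out the counts were 0 higher and 0 to 1 lower, and with the block they were 25 and 13 without replicate 1, 43 and 38 without replicate 2, and 8 and 4 without replicate 3. Without both 500 Pa replicate 3 and 8000 Pa replicate 1, a choice made after seeing the data, they were 1 and 1. Genes of the related lists called were 0 with stiffness alone, and 3 with the block (UPP1, PECAM1 and CDH5), with the block and GC offset and in DESeq2 with the block. In the block they numbered 2 without replicate 1, 3 without replicate 2 and 0 without replicate 3. The cause of these differences was not tested. Of the 10 host genes 7 were below 0, but 4 with a minimum count of 50, where SNHG7 and SNHG12 were not tested, and 4 to 8 with libraries left out. Over the 20 alternatives the median of the 10 ran from -0.29 to 0.02 and was below 0 in 18. These fits share most or all of their libraries, so their closeness to each other is no sign of a stable median. SNHG15 was between -1.23 and -0.77 in all 20. The median of the other noncoding hosts, 0.03, ran from -0.32 to 0.27 with libraries left out. With total counts only, the median of all genes was shifted to 0.17, and SNHG15 was at -0.86. SNHG7 and SNHG12, at 17 to 71 counts per library, are limited by depth.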

Other observations

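The snoRNAs inside the 10 host genes were almost absent from the counts. Of the 37, 35 had a row and 27 had at least 1 count in some library, with 202 counts over the 6 libraries against 43911 for their hosts. SNORD80 in GAS5 had the most, 57 counts in all. Per library these 35 rows summed to 51, 16 and 24 counts on soft gels and 54, 24 and 33 counts on stiff gels, and 0 of them passed the filter for testing. SNORA9, inside SNHG15, had 5 counts in all. Whether the snoRNAs followed their hosts could not be read from so few counts. Why the counts were so few was not tested.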
